A study of Rattus norvegicus with 18 samples.

Results

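The 7 carbonic anhydrase genes Car1, Car2, Car3, Car4, Car9, Car12 and Car13 were taken by symbol from a count table of 17337 rat genes, and all 7 were present. The libraries came from bone repairing around 3D-printed implants placed in a defect of the radius of wild-type rats. The ACPC-NP scaffold was PCL loaded with chitosan nanoparticles of amorphous calcium phosphate, the CaP scaffold was PCL with microparticles of calcium phosphate, and the PCL scaffold was the bare material that all implants share. Each scaffold was sampled at weeks 2 and 6 with 3 libraries, which gives 6 groups and 18 libraries. Rat age, sex and strain, and whether the 3 replicates were different animals, are not given in the labels, so the p-values measure only the spread between these libraries, which may be technical.

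RNA was polyadenylated and came from pooled marrow and bone cells next to the implant, and the marrow had been treated with red blood cell lysis buffer. Levels are given in CPM, counts scaled to library sizes adjusted by TMM. They are not scaled by gene length, so they are compared between libraries of a gene and not between genes. Total counts were 18880604 to 27186587 per library. The bone markers Col1a1 (4373 to 25367 CPM) and Bglap (112 to 509 CPM), the leukocyte marker Ptprc (700 to 1307 CPM), the osteoclast marker Acp5 (98.9 to 392.1 CPM) and the haemoglobin gene Hbb (18032 to 59101 CPM) were detected in every library. Replicate 3 of ACPC-NP at week 2 stood apart, with Fth1 (ferritin heavy chain) at 49702 CPM against 1216 to 4569 CPM in the other libraries. Its TMM factor was 0.706, against 0.950 to 1.113 in the other libraries, which raises its CPM relative to its total count. The differences of Car1, Car2, Car4 and Car13 that include this library are also given without it. In these bulk samples more cells of a type and more RNA per cell cannot be told apart.

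Carbonic anhydrases interconvert carbon dioxide and bicarbonate with release or uptake of a proton. Cytosolic Car1 and Car2 serve gas transport in red cells, and Car2 also supplies the protons with which osteoclasts dissolve bone mineral, so that loss of the human enzyme causes osteopetrosis. Car3 is a cytosolic form of low activity known from slow muscle, liver and fat, and Car13 is a further cytosolic form. Car4 is tethered to the outer cell surface by a lipid anchor, and Car9 and Car12 cross the membrane with the catalytic domain outside. Car9 is a textbook target of the hypoxia-inducible factors, and Car12 is also induced by low oxygen in many human cells.

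The members did not move together. Car4 rose around ACPC-NP at week 2, and its difference from the CaP and PCL mean ranked first by p among the 11814 genes tested. Car1 and Car2 were higher around ACPC-NP than around CaP and PCL in every library at week 6, but did not pass the test, and over all 18 libraries they tracked red cell genes. Car12 tracked cartilage genes. Over all 18 libraries Car9 did not track hypoxia genes, Car3 did not track muscle genes, and Car2 did not track osteoclast genes. Within single weeks these relations differed, as for Car3 with fast muscle genes (r = 0.145 within week 2 and 0.794 within week 6).

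All 7 members passed the filter on low counts. In edgeR's quasi-likelihood test with Benjamini-Hochberg adjustment over all genes tested, at a threshold of 0.05, 1 of the 7 members was called in ACPC-NP against the CaP and PCL mean at week 2, where 4.99% of all genes were called. In the other 13 comparisons edgeR called 0 members; among these, week 6 against week 2 around ACPC-NP called 0.00846% of all genes and the rest called 0%. DESeq2 and voom with quality weights each called 0 to 2 members in these 13. In ACPC-NP against PCL at week 6, for example, each called 2, beside 7.63% and 34.2% of all genes.

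An unadjusted p under 0.05 in edgeR was seen at week 2 for 2 members in ACPC-NP against PCL and 3 in ACPC-NP against CaP (15.7% of all genes in each) and for 0 in CaP against PCL (1.55%). At week 6 it was seen for 2 in ACPC-NP against PCL (21.9%), 1 in ACPC-NP against CaP (9.34%), 0 in CaP against PCL (2.57%) and 2 in ACPC-NP against the CaP and PCL mean (20.5%). Between the weeks it was seen for 3 members around ACPC-NP (19.8%), 2 around CaP (4.82%) and 2 around PCL (9.87%). For the change of the scaffold difference between the weeks it was seen for 4 in ACPC-NP against PCL (15%), 4 in ACPC-NP against CaP (14.2%) and 0 in CaP against PCL (1.68%). The members behind these counts are described in turn.

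**Figure D1:**
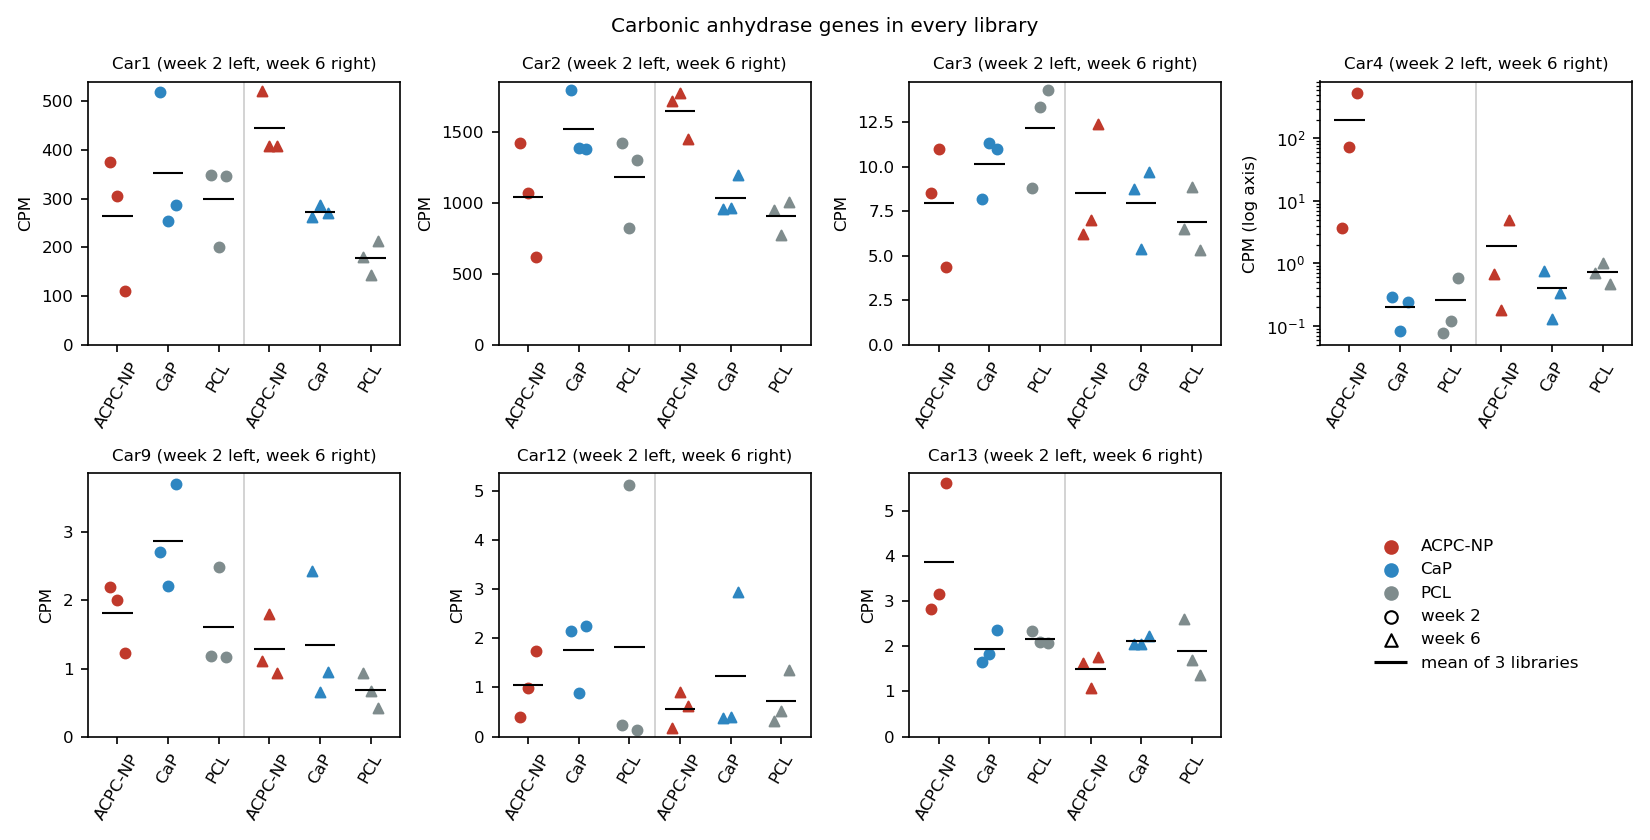
CPM of each carbonic anhydrase (vertical, from 0, with a log axis for Car4) in the 18 libraries, by scaffold and week; points are libraries and bars are group means. Car4 reached 522 CPM in 1 ACPC-NP library at week 2 and stayed at 0.583 CPM or less in all CaP and PCL libraries of that week.

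Car4, the lipid-anchored form of the outer cell surface, was near the detection limit in most libraries. At week 2 it had 3.74, 71.8 and 522 CPM around ACPC-NP in replicates 1, 2 and 3, against 0.288, 0.084 and 0.237 CPM around CaP and 0.077, 0.119 and 0.583 CPM around PCL. The 3 ACPC-NP libraries lay above all 6 others of that week, although they differed widely among themselves. The counts behind these levels were 95, 1822 and 9302 around ACPC-NP, and 2 to 14 around CaP and PCL.

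At week 2 the Car4 difference of ACPC-NP from the CaP and PCL mean was 9.74 ± 1.23 on the log2 scale (SE, 3 libraries against 6; edgeR adjusted p = 0.0056). Ranges that do not overlap in the upward direction were seen for 5.80% of all genes in that comparison, and Car4 and Car13 were the members among them. Without replicate 3 of ACPC-NP the difference was 7.34 ± 1.02 (edgeR adjusted p = 0.0190), and Car4 was then among the 10 genes called, 0.0837% of those tested. With only the 3 groups of week 2 in the fit the adjusted p of edgeR was 0.0664 (0.0346% of all genes called), and with voom it was 0.0619 (7.4%).

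Against each scaffold alone at week 2, the Car4 difference was 9.59 ± 1.66 from PCL (edgeR adjusted p = 0.0712) and 9.90 ± 1.70 from CaP (edgeR adjusted p = 0.10). Neither passed, and edgeR called 0 of all genes in either comparison. By p Car4 had rank 5 against PCL and rank 1 against CaP. Its ranges lay wholly above in both, as did those of 9.56% of all genes against PCL and 8.57% against CaP. DESeq2 called Car4 in both, among 5.37% of all genes against PCL and 5.04% against CaP. EdgeR called Car4 in both without replicate 1 of ACPC-NP (7.34% and 7.47% of all genes called) and without replicate 2 (3.21% and 1.18%). Without replicate 3 of ACPC-NP it did not call Car4, with 7.18 ± 1.35 against PCL (edgeR adjusted p = 0.151) and 7.50 ± 1.38 against CaP (edgeR adjusted p = 0.276). Car4 was not called without any 1 PCL library (edgeR adjusted p = 0.208 to 0.306) or without any 1 CaP library (edgeR adjusted p = 0.235 to 0.350).

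At week 6 Car4 had 0.684, 0.181 and 4.89 CPM around ACPC-NP, against 0.765, 0.131 and 0.332 CPM around CaP and 0.694, 1.03 and 0.467 CPM around PCL. These groups overlapped. Week 6 minus week 2 around ACPC-NP was −6.74 ± 1.39 on the log2 scale (edgeR adjusted p = 0.0870), and the weeks overlapped because replicate 3 at week 6 (4.89 CPM) exceeded replicate 1 at week 2 (3.74 CPM). The change of the scaffold difference between the weeks, week 6 minus week 2, was −8.25 ± 2.21 for ACPC-NP against PCL (edgeR adjusted p = 0.278) and −7.80 ± 2.49 for ACPC-NP against CaP (edgeR adjusted p = 0.267). Without replicate 3 of ACPC-NP at week 2 the difference between the weeks was −4.31 ± 1.15 (edgeR adjusted p = 0.293), and the changes were −5.81 ± 1.70 against PCL (edgeR adjusted p = 0.549) and −5.36 ± 1.79 against CaP (edgeR adjusted p = 0.499).

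By group mean, Car4 ran in the order ACPC-NP at week 2 (199 ± 282 CPM, SD, n = 3), ACPC-NP at week 6, PCL at week 6, CaP at week 6, PCL at week 2 and CaP at week 2. Every neighbour in that order overlapped. The 5 genes most like Car4 over the 18 libraries by Spearman's rho were Fabp4 (a fatty acid binding protein of fat cells and macrophages, 0.889), Il18bp (the decoy of interleukin 18, 0.831), Abcb1b (a drug efflux pump, 0.831), Mmp12 (macrophage elastase, 0.829) and Mif (a macrophage cytokine, 0.827). Of these, Fabp4 belongs to the adipocyte list used below. Most of the ranks come from libraries near the detection limit, and the neighbours changed with the measure. By Pearson's r they were Msr1 (0.960), F3 (0.946), Ctsl (0.941), Edn1 (0.938) and Il1rn (0.934). Without replicate 3 of ACPC-NP at week 2, Stmn2 (0.828) and Ank3 (0.814) took the places of Mmp12 and Mif by rho.

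The RefSeq promoter table (assembly GRCr8) held 3 of the 7 members, the membrane forms Car4, Car9 and Car12, and their windows are printed because low oxygen is a textbook inducer of Car9 and Car12. Each window runs from 250 bases before to 50 bases after the start on the + strand, Car4 at chr10:70325108-70325407, Car9 at chr5:62558774-62559073 and Car12 at chr8:76169565-76169864. Capitals mark the hypoxia response core, ACGTG or GCGTG on either strand, so that a match on the other strand reads CACGT or CACGC. Adjacent or overlapping matches run together.
Car4: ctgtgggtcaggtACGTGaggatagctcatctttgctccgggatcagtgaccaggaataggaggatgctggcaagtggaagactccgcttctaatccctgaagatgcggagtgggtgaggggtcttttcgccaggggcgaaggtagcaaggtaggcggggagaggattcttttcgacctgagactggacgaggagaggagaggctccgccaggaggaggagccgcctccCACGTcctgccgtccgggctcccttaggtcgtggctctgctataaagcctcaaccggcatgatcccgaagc
Car9: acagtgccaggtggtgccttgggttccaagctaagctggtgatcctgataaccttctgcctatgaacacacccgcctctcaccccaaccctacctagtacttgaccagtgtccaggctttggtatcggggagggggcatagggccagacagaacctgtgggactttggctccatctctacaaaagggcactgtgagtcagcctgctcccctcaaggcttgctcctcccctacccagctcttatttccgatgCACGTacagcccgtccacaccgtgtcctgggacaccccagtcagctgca
Car12: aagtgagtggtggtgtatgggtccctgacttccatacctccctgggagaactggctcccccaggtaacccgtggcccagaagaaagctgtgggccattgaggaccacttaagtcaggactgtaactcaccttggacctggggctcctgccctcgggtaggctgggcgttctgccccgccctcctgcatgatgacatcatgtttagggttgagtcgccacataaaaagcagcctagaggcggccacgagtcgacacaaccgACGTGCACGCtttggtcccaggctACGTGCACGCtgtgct
Car4 had 2 matches, Car9 had 1 and Car12 had 4. The core was present in 41.6% of the 33469 promoters in the table, so a match describes the letters only.

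Car9, the transmembrane form known as a hypoxia target, was low in all libraries (10 to 94 counts). At week 2 it had 2.2, 2.01 and 1.24 CPM around ACPC-NP, against 2.71, 2.22 and 3.71 CPM around CaP and 1.19, 2.5 and 1.17 CPM around PCL. The ACPC-NP libraries lay below the CaP libraries by a narrow gap and overlapped the PCL libraries. The gap lay between 2.204 CPM in ACPC-NP replicate 1 and 2.217 CPM in CaP replicate 2, whose unscaled counts (56 and 53) ran the other way. The difference of ACPC-NP from CaP was −0.66 ± 0.47 on the log2 scale and did not pass (edgeR adjusted p = 0.536), in a comparison in which 7.91% of all genes had ranges wholly below.

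At week 6 Car9 had 1.11, 1.81 and 0.937 CPM around ACPC-NP, against 2.43, 0.653 and 0.949 CPM around CaP and 0.939, 0.673 and 0.424 CPM around PCL. Week 6 was below week 2 in every PCL library, by −1.24 ± 0.50 (edgeR adjusted p = 0.459; 6.7% of all genes had ranges wholly below), and the weeks overlapped around CaP (−1.08 ± 0.48, edgeR adjusted p = 0.953). By group mean Car9 ran from 2.88 ± 0.759 CPM in CaP at week 2 through ACPC-NP and PCL at week 2 and CaP and ACPC-NP at week 6 to 0.679 ± 0.257 CPM in PCL at week 6 (SD, n = 3 each). Among neighbours in this order, CaP and ACPC-NP at week 2 were apart by only the narrow gap named above, and the other neighbours overlapped.

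Car9 showed little relation to the hypoxia and glycolysis list, 22 genes that include the glucose transporter Slc2a1, Vegfa, Ldha and Egln3. Its level against the list score, the mean centred log2 CPM of the list's genes, had Pearson's r = 0.0521 and Spearman's rho = 0.143 over 18 libraries (permutation adjusted p = 0.933 and 0.757). Within the weeks r was −0.329 at week 2 and 0.472 at week 6. In replicate 3 of ACPC-NP at week 2, where the list summed to 23079 CPM, Car9 was at 1.24 CPM. Its nearest genes by rho were Cadm1 (a cell adhesion molecule, 0.781), Pygo1 (0.779), the clock factor Npas2 (0.765), Tspan6 (0.759) and the tendon protein Tnmd (0.738). Among the lists, its largest rho in size was with 14 fast muscle genes (−0.651, permutation adjusted p = 0.0584).

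Car12, the other transmembrane form, varied more within groups than between them. At week 2 it had 0.394, 0.986 and 1.74 CPM around ACPC-NP, against 2.14, 0.878 and 2.25 CPM around CaP and 0.230, 5.11 and 0.125 CPM around PCL. At week 6 it had 0.171, 0.903 and 0.625 CPM around ACPC-NP, against 0.382, 0.392 and 2.94 CPM around CaP and 0.327, 0.515 and 1.36 CPM around PCL. All groups overlapped, and no comparison had an unadjusted p under 0.05 in edgeR.

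Across the libraries Car12 followed the cartilage genes. Its level against the score of 12 chondrocyte genes, among them Col2a1 and Acan, had r = 0.838 and rho = 0.833 (permutation adjusted p = 0.00105 and 0.0021, n = 18 libraries). Without the 2 libraries farthest from the median score r was 0.831, and within the weeks it was 0.856 at week 2 and 0.946 at week 6 (9 libraries each). Car9 against the same score had r = 0.86 within week 2, −0.182 within week 6 and 0.367 over 18 libraries (permutation adjusted p = 0.387). The 1 PCL library with 5.11 CPM of Car12 at week 2 was also the highest in the list score, and the summed chondrocyte level of PCL at week 2 ran from 718 to 10414 CPM.

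The genes nearest to Car12 by rho were Slc38a3 (an amino acid transporter, 0.884), Col2a1 (the main cartilage collagen, 0.876), Clec3a (a cartilage lectin, 0.874), Six4 (a homeobox factor, 0.868) and Matn3 (a cartilage matrilin, 0.866). Col2a1 and Matn3 are in the chondrocyte list. How much cartilage each sample held was not measured otherwise, and its part in the Car12 spread was not tested.

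Car1, a cytosolic enzyme of red cells, was higher around ACPC-NP at week 6 than in the other libraries of that week. It had 519, 407 and 408 CPM around ACPC-NP, against 261, 287 and 270 CPM around CaP and 180, 144 and 214 CPM around PCL. The 3 scaffolds did not overlap, with ACPC-NP on top and PCL at the bottom. The difference of ACPC-NP was 1.31 ± 0.37 from PCL on the log2 scale (edgeR adjusted p = 0.0874), 0.71 ± 0.36 from CaP (edgeR adjusted p = 0.566) and 1.01 ± 0.30 from the mean of both (edgeR adjusted p = 0.115). CaP minus PCL was 0.61 ± 0.36 (edgeR adjusted p = 1.00), with ranges wholly above in 3.99% of all genes.

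Car2, the cytosolic form of red cells and osteoclasts, had the same order. At week 6 it had 1716, 1774 and 1445 CPM around ACPC-NP, against 953, 962 and 1195 CPM around CaP and 951, 776 and 1004 CPM around PCL. ACPC-NP lay above both others, and CaP and PCL overlapped. The difference of ACPC-NP was 0.85 ± 0.26 from PCL (edgeR adjusted p = 0.0946), 0.67 ± 0.26 from CaP (edgeR adjusted p = 0.520) and 0.76 ± 0.22 from the mean of both (edgeR adjusted p = 0.114).

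None of these week 6 differences passed in edgeR, where 0% of all genes were called in any comparison between scaffolds at week 6. Ranges that did not overlap in the upward direction were common among all genes: 12.8% against PCL, 12.3% against CaP and 7.17% against the mean of both. Against PCL, DESeq2 and voom each called Car1 and Car2, beside 7.63% and 34.2% of all genes. Against the mean, DESeq2 (5.6% of all genes called), voom (29.3%) and edgeR on the groups of week 6 alone (2.74%) each called Car1 and Car2. Without replicate 1 of PCL at week 6, edgeR called Car2 against the mean (0.76, adjusted p = 0.0498), beside 11.2% of all genes.

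At week 2 Car1 had 375, 305 and 111 CPM around ACPC-NP, against 518, 255 and 287 CPM around CaP and 348, 201 and 346 CPM around PCL. Car2 had 1419, 1071 and 622 CPM around ACPC-NP, against 1793, 1384 and 1380 CPM around CaP and 1419, 822 and 1302 CPM around PCL. In both genes the lowest library of the week was replicate 3 of ACPC-NP, and the groups overlapped. Car2 in ACPC-NP minus CaP was −0.55 ± 0.26 (edgeR adjusted p = 0.315), and −0.29 ± 0.22 without that replicate (edgeR adjusted p = 0.999).

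Between the weeks the ACPC-NP libraries of Car1 and Car2 were higher at week 6 without overlap, by 0.75 ± 0.36 (edgeR adjusted p = 0.267) and 0.67 ± 0.26 (edgeR adjusted p = 0.177). Around CaP, Car2 was lower in every library of week 6 than of week 2, by −0.55 ± 0.26 (edgeR adjusted p = 0.953). The change of ACPC-NP against CaP between the weeks was 1.22 ± 0.36 for Car2 (edgeR adjusted p = 0.257) and 1.13 ± 0.51 for Car1 (edgeR adjusted p = 0.343), and against PCL it was 1.04 ± 0.36 and 1.49 ± 0.51 (edgeR adjusted p = 0.278 for each). Without replicate 3 of ACPC-NP at week 2 the week difference was 0.41 ± 0.29 for Car1 (edgeR adjusted p = 0.696) and 0.42 ± 0.22 for Car2 (edgeR adjusted p = 0.558). The change against CaP was then 0.96 ± 0.30 for Car2 and 0.76 ± 0.39 for Car1, and against PCL 0.80 ± 0.30 and 1.15 ± 0.39 (edgeR adjusted p = 0.499 to 0.656). Ranges at week 6 lay wholly above for 9.23% of all genes around ACPC-NP and wholly below for 7.93% around CaP.

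By group mean Car1 ran in the order ACPC-NP at week 6 (445 ± 64.2 CPM), CaP at week 2 (353 ± 143 CPM), PCL at week 2 (298 ± 84.5 CPM), CaP at week 6 (273 ± 13.1 CPM), ACPC-NP at week 2 (264 ± 137 CPM) and PCL at week 6 (179 ± 34.9 CPM, SD, n = 3 each). Every neighbour in that order overlapped. Car2 ran in the order ACPC-NP at week 6 (1645 ± 176 CPM), CaP at week 2 (1519 ± 238 CPM), PCL at week 2 (1181 ± 316 CPM), ACPC-NP at week 2 and CaP at week 6 (1037 ± 400 and 1037 ± 137 CPM) and PCL at week 6 (910 ± 119 CPM, SD, n = 3 each), and its neighbours overlapped as well.

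Car1 and Car2 followed each other, with r = 0.922 and rho = 0.905 over 18 libraries (permutation adjusted p = 0.00021 for each, over 21 pairs of members) and r = 0.863 without the 2 farthest libraries. Both followed the 15 tested red cell genes, among them Slc4a1 (band 3), Alas2 and Hbb. Car2 against the red cell score had r = 0.889 and rho = 0.839 (permutation adjusted p = 0.00105 and 0.0021), with r = 0.886 within week 2, 0.931 within week 6 and 0.825 without the 2 farthest libraries. Car1 had r = 0.775 and rho = 0.622 (permutation adjusted p = 0.0021 and 0.0801), with r = 0.662 without the 2 farthest libraries.

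The red cell list was higher around ACPC-NP at week 6, as were Car1 and Car2. Its summed level was 58078 to 78236 CPM around ACPC-NP, against 30783 to 42982 CPM around CaP and 27467 to 43392 CPM around PCL. Of the 15 tested genes 12 had an unadjusted p under 0.05 upward against the CaP and PCL mean, as did 9.62% of all genes, and 0 were called. The median difference was 0.58 beside 0.00 over all genes. Gata1 was listed at 0 in every library, while Hbb was among the abundant genes. The list of 11 tested neutrophil genes was higher by group mean as well, but overlapped both other scaffolds. Its summed level was 28358 to 40399 CPM around ACPC-NP, against 22187 to 28941 CPM around CaP and 15416 to 37329 CPM around PCL, and all 11 differences from the mean lay above 0 (median 0.55, 3 with an unadjusted p under 0.05, 0 called). Within week 6 its score had r = 0.771 with Car1 and 0.845 with Car2 over 9 libraries, and within week 2 r was 0.194 and 0.214. Over 18 libraries r was 0.536 and 0.567 (permutation adjusted p = 0.124 and 0.0905). Against the same mean at week 6 all 11 macrophage genes (median 0.33) and all 14 fast muscle genes (median 0.97) also lay above 0, and all 12 chondrocyte genes below. The part of red cell or neutrophil content in the Car1 and Car2 differences was not tested.

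The genes nearest to Car2 by rho were Ahsp (the chaperone of alpha globin, 0.981), Urod (an enzyme of haem synthesis, 0.979), Pigq (0.977), Pck2 (0.975) and Glrx5 (an iron-sulphur cluster protein, 0.975). For Car1 they were Hdgf (0.965), Pklr (the pyruvate kinase of liver and red cells, 0.963), RGD1304567 (0.953), Tal1 (a blood cell transcription factor, 0.940) and Pdxp (0.940). Ahsp is in the red cell list.

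Over 18 libraries Car2 showed no such relation to the osteoclast list of 13 genes, which holds Acp5, Ctsk and the proton pump subunit Tcirg1. It had r = −0.231 and rho = −0.0939 (permutation adjusted p = 0.759 and 0.828). Within week 2 r was −0.597, within week 6 it was 0.182, and without the 2 farthest libraries it was 0.0283. Car2 of red cells and Car2 of osteoclasts cannot be told apart in these bulk levels. At week 2, 7 of the 13 osteoclast genes were called higher around ACPC-NP against the CaP and PCL mean in edgeR, where 4.88% of all genes were called higher, while Car2 differed by −0.37 ± 0.23 (edgeR adjusted p = 0.391). Without replicate 3 of ACPC-NP 0 of the 13 were called, where 0.0837% of all genes were called. Of the 13, 12 still lay above 0 (median 0.48), and 9 had an unadjusted p under 0.05 upward in edgeR, beside 4.84% of all genes. Car2 then differed by −0.11 ± 0.20 (edgeR adjusted p = 0.977).

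**Figure D2:**
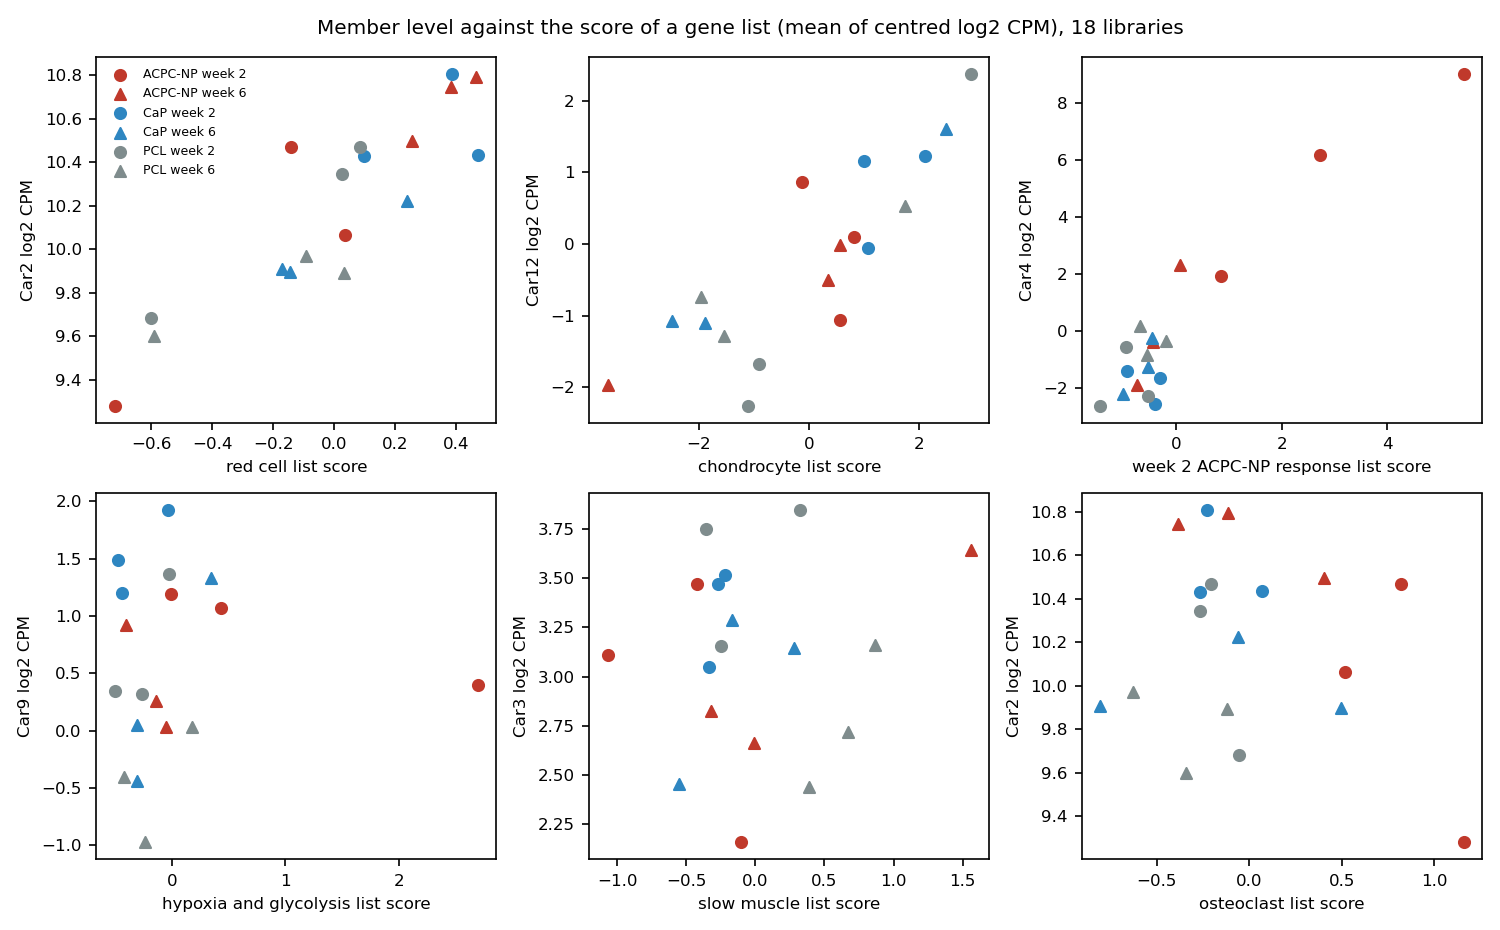
Level of a carbonic anhydrase (vertical, log2 CPM) against the score of a gene list (horizontal, mean centred log2 CPM) in 18 libraries, coloured by scaffold, with circles for week 2 and triangles for week 6. Car2 followed the red cell score (r = 0.889) and Car12 the chondrocyte score (r = 0.838), whereas Car9 against the hypoxia score (r = 0.0521), Car3 against the slow muscle score (r = 0.115) and Car2 against the osteoclast score (r = −0.231) did not.

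Car13, a cytosolic form, was higher around ACPC-NP at week 2 but did not pass the test. It had 2.83, 3.16 and 5.61 CPM around ACPC-NP, against 1.64, 1.84 and 2.37 CPM around CaP and 2.34, 2.10 and 2.08 CPM around PCL, from 24 to 100 counts per library over the series. The ACPC-NP libraries lay above all 6 others. The difference from the CaP and PCL mean was 0.90 ± 0.26 on the log2 scale (edgeR adjusted p = 0.0561), and 0.53 ± 0.26 without replicate 3 (edgeR adjusted p = 0.739). Against CaP it was 0.98 ± 0.31 (edgeR adjusted p = 0.137) and against PCL 0.82 ± 0.30 (edgeR adjusted p = 0.191). Without replicate 3 these were 0.61 ± 0.29 (edgeR adjusted p = 0.883) and 0.45 ± 0.29 (edgeR adjusted p = 0.901). DESeq2 and voom called it against the mean (8.63% and 7.4% of all genes called) and against CaP (5.04% and 3.09%). EdgeR called it against the mean without replicate 1 (11.4%) or without replicate 2 of ACPC-NP (7.79%), and against CaP without replicate 1 (7.47%).

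At week 6 the order turned: Car13 had 1.62, 1.08 and 1.77 CPM around ACPC-NP, against 2.05, 2.05 and 2.23 CPM around CaP and 2.61, 1.70 and 1.36 CPM around PCL. ACPC-NP lay below CaP (−0.50 ± 0.31, edgeR adjusted p = 0.609), as in 12.5% of all genes, and overlapped PCL. Around ACPC-NP, week 6 lay below week 2 by −1.37 ± 0.31 without overlap, as in 9.3% of all genes (edgeR adjusted p = 0.0870; −0.98 ± 0.30 and 0.330 without replicate 3 of week 2). DESeq2 called Car4 and Car13 between these weeks, beside 6.64% of all genes, and voom called Car2 and Car13, beside 11.4%. The change of ACPC-NP against CaP between the weeks was −1.48 ± 0.44 (edgeR adjusted p = 0.257) and against PCL −1.17 ± 0.44 (edgeR adjusted p = 0.282), or −1.11 ± 0.40 and −0.78 ± 0.40 without replicate 3 of week 2 (edgeR adjusted p = 0.523 and 0.612).

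By group mean Car13 ran in the order ACPC-NP at week 2 (3.87 ± 1.52 CPM), PCL at week 2 (2.17 ± 0.143 CPM), CaP at week 6 (2.11 ± 0.104 CPM), CaP at week 2 (1.95 ± 0.374 CPM), PCL at week 6 (1.89 ± 0.648 CPM) and ACPC-NP at week 6 (1.49 ± 0.362 CPM, SD, n = 3 each). The first group stood clear of the second, and the later neighbours overlapped. The genes nearest to Car13 by rho were Tfg (a protein of the secretory pathway, 0.831), Slc2a13 (a proton-coupled inositol transporter, 0.825), the heat shock gene Hspa1a (0.798), Sec24d (a vesicle coat protein, 0.796) and Slc41a2 (0.792).

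Car3, known from slow muscle and fat, differed little between groups. At week 2 it had 8.54, 11 and 4.38 CPM around ACPC-NP, against 8.18, 11.3 and 11 CPM around CaP and 8.81, 13.3 and 14.3 CPM around PCL. At week 6 it had 6.24, 7.0 and 12.4 CPM around ACPC-NP, against 8.76, 5.40 and 9.68 CPM around CaP and 6.49, 8.87 and 5.35 CPM around PCL. The groups overlapped throughout, and the 1 comparison with an unadjusted p under 0.05 was week 6 against week 2 around PCL (−0.81 ± 0.35, edgeR adjusted p = 0.476).

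Car3 did not track the muscle lists over the whole series. Over 18 libraries its r was 0.115 with 8 slow muscle genes and 0.0950 with 14 fast muscle genes (permutation adjusted p = 0.897 and 0.933). At week 6 the summed fast muscle level was 90.7 to 827 CPM around ACPC-NP, against 80.0 to 267 CPM around CaP and 142 to 276 CPM around PCL. Within week 6 r with the fast muscle score was 0.794 over 9 libraries, and within week 2 it was 0.145. With the slow muscle score r was 0.599 within week 6 and 0.161 within week 2. Replicate 3 of ACPC-NP at week 6 had the highest fast muscle score (2.86) and that week's highest Car3. Without it and replicate 1 of ACPC-NP at week 2, the 2 farthest libraries, r with the fast muscle score was −0.146. Within week 6 Car3 also had r = 0.798 with the osteoclast score, 0.730 with the endothelial score and −0.158 with the neutrophil score. The genes nearest to Car3 by rho were Pald1 (0.851), Fam110d (0.849), Mpzl1 (0.845), Insc (0.843) and Tspan12 (0.843). Over 18 libraries its largest r with any list was with 10 endothelial genes (r = 0.570, permutation adjusted p = 0.0905).

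**Figure D3:**
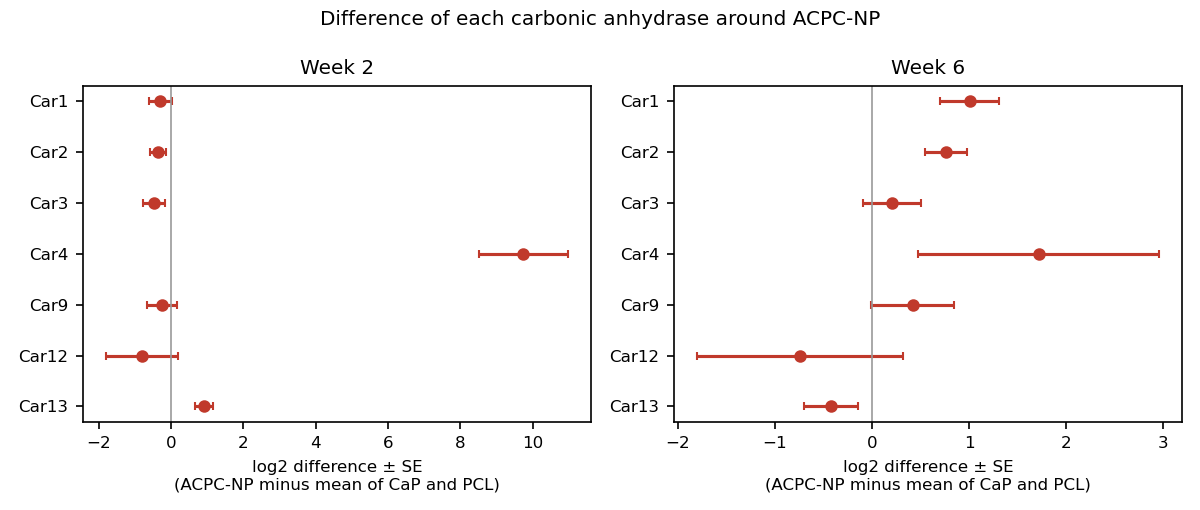
Log2 difference of each carbonic anhydrase (dots with standard errors) for ACPC-NP against the CaP and PCL mean at week 2 (left) and week 6 (right), on axes of different scale. At week 2 Car4 stood at 9.74 ± 1.23, and the other 6 members lay from −0.80 ± 1.00 (Car12) to 0.90 ± 0.26 (Car13).

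Both Car4 and Car13 were compared with the response around ACPC-NP at week 2. A list of 9 genes of that response (Arg1, Ccl4, Cd274, Cxcl3, F3, Fcgr2b, Gal, Il1rn and Irg1) was chosen on these samples, so it is no independent evidence and its relations get no p. All 9 were called higher around ACPC-NP against the CaP and PCL mean, with a median difference of 5.30, where 4.88% of all genes were called higher. Without replicate 3 all 9 (median 2.88) and Car4 were among the 10 genes called, 0.0837% of those tested. Because the list was chosen on these samples, these calls and the likeness of Car4 to it are no separate result. Car4 against its score had r = 0.944 and rho = 0.670, and r = 0.721 without the 2 farthest libraries. Car13 had r = 0.792 and rho = 0.523, and r = 0.316 without them.

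Car4 and Car13 were alike in r but not in rank, with r = 0.719 and rho = 0.304 between them and r = 0.154 without the 2 farthest libraries. Against the hypoxia and glycolysis score Car4 had r = 0.840 and rho = 0.666 (permutation adjusted p = 0.00367 and 0.0584) and Car13 had r = 0.796 and rho = 0.581 (permutation adjusted p = 0.0063 and 0.113). Without replicates 2 and 3 of ACPC-NP at week 2, the libraries farthest from the median, r was 0.457 and 0.420, so these relations rest on those libraries. Other libraries were farthest for the next lists. Car4 with the osteoclast score had r = 0.764, and 0.575 without replicates 1 and 3 of ACPC-NP at week 2. With the macrophage score Car4 had r = 0.710, and 0.412 without replicate 3 of ACPC-NP and replicate 2 of PCL at week 2. Car13 with the osteoclast score had r = 0.670 (permutation adjusted p = 0.0214), and 0.341 without the 2 farthest. Car2 with the hypoxia and glycolysis score had r = −0.599 (permutation adjusted p = 0.0381), and −0.334 without replicates 2 and 3 of ACPC-NP at week 2. With the adipocyte score Car4 had rho = 0.690 (permutation adjusted p = 0.0490) and r = 0.485 (permutation adjusted p = 0.173). That list was split at week 2, with 4 of its 8 tested genes above 0 and 4 below against the CaP and PCL mean (median −0.01), and it holds Fabp4, the gene nearest to Car4.

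In all, 70 pairs of a member and a list were given a p, and 9 passed by r and 3 by rho. The 3 were Car2 with red cell genes, Car12 with chondrocyte genes and Car4 with adipocyte genes. The libraries share their groups, so these relations describe the series and are not independent of the scaffold and week.

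**Figure D4:**
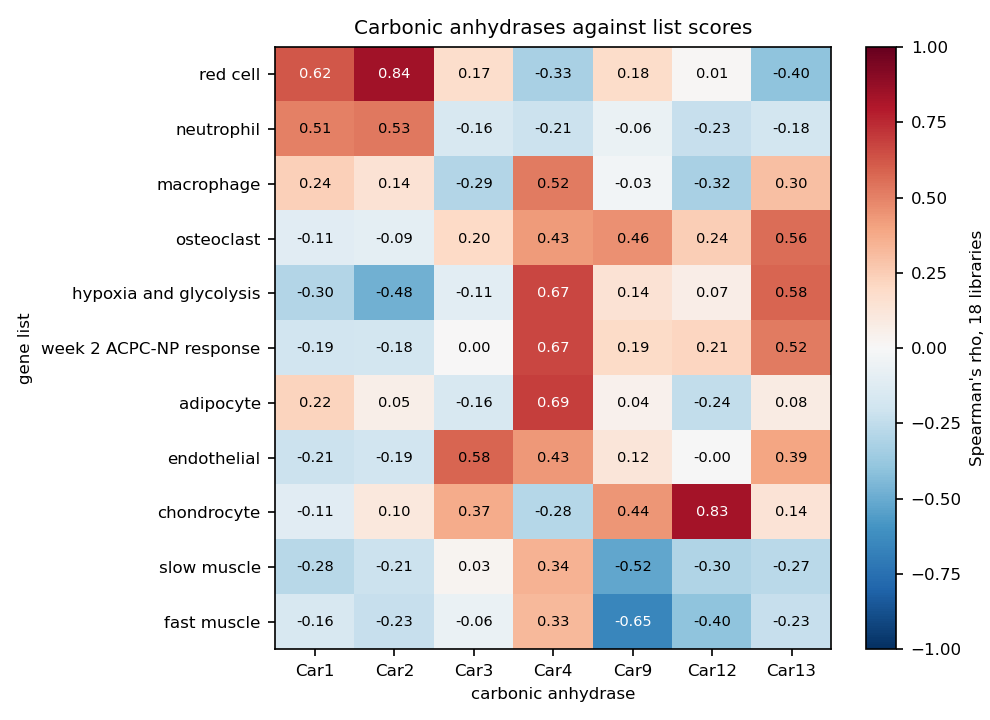
Spearman's rho over 18 libraries between the log2 CPM of each carbonic anhydrase (columns) and the score of each gene list (rows), from blue (−1) to red (1). The deepest cells are Car2 with the red cell list (0.839) and Car12 with the chondrocyte list (0.833), and Car9 is at 0.143 with the hypoxia list.

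The genes that work beside the carbonic anhydrases in acid and bicarbonate transport were examined at week 2, ACPC-NP against the CaP and PCL mean, where 4.88% of all genes were called higher. Of 21 tested V-ATPase subunits, the proton pump of osteoclasts and lysosomes, 6 were called higher and 0 lower, with a median difference of 0.64 beside −0.02 over all genes. Tcirg1, its osteoclast subunit, averaged 238 ± 130 CPM around ACPC-NP, against 116 ± 1.47 CPM around CaP and 116 ± 11 CPM around PCL (SD, n = 3 each), a difference of 1.03 ± 0.23 (edgeR adjusted p = 0.0217). Atp6v1b2 differed by 1.11 ± 0.26 (edgeR adjusted p = 0.0289), Atp6v1g1 by 0.87 ± 0.22 and Atp6v1e1 by 0.64 ± 0.14, each without overlap. Atp6v1b1 was listed at 0 in every library.

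Among 11 tested bicarbonate transporters 3 were called higher and 0 lower. Slc4a2, the chloride-bicarbonate exchanger of osteoclasts, averaged 125 ± 23.3 CPM around ACPC-NP, against 85.7 ± 3.91 CPM around CaP and 85.9 ± 3.45 CPM around PCL (SD, n = 3 each), a difference of 0.55 ± 0.12 without overlap (edgeR adjusted p = 0.0185). Slc26a9, an anion transporter, ran from 3.35 to 48.6 CPM around ACPC-NP and averaged 2.82 ± 0.750 CPM around CaP and 2.75 ± 1.32 CPM around PCL (difference 2.82 ± 0.56, edgeR adjusted p = 0.0145), and Slc4a5 differed by 3.31 ± 0.88 (edgeR adjusted p = 0.0424), both with overlap. Slc4a1, the exchanger of red cells, was not called at week 2 (−0.42 ± 0.23) or week 6 (0.70 ± 0.22, edgeR adjusted p = 0.120), and at week 6 it lay above both other scaffolds, as Car1 and Car2 did.

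Of 11 genes of sodium-proton and monocarboxylate exchange, 1 was called higher and 0 lower: Bsg, the chaperone of the lactate carriers, with a difference of 1.18 ± 0.29 (edgeR adjusted p = 0.0320). The lactate carrier Slc16a3 differed by 1.53 ± 0.46 and did not pass (edgeR adjusted p = 0.0713). The hypoxia and glycolysis list had 15 of 22 genes called higher, with a median difference of 1.68. Without replicate 3 of ACPC-NP at week 2, edgeR called 0 genes in the V-ATPase, bicarbonate, exchange, osteoclast, macrophage and hypoxia lists, where it called only 0.0837% of all genes. The medians were 0.25 for V-ATPase, 0.48 for osteoclast and 0.40 for hypoxia genes. At an unadjusted p under 0.05 upward there were then 7 V-ATPase, 9 osteoclast and 8 hypoxia genes, beside 4.84% of all genes.

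The table held 8 further carbonic anhydrases, of which 4 passed the filter. Car5b, a mitochondrial form, had 5.03 to 27.3 CPM over the 18 libraries, and the secreted Car6 had 2.08 to 4.19 CPM. Car8 and Car11, related proteins that lack catalytic activity, had 4.19 to 18.1 CPM and 0.915 to 3.31 CPM. Car5a, Car7 and Car14 had at most 5 counts in any library, and Car15 was listed at 0. In the order of the RefSeq annotation, Car2, Car3, Car1 and Car13 are neighbours on chromosome 2. Within that row Car1 and Car2 had r = 0.922, whereas Car13 against Car2 had r = −0.540 (permutation adjusted p = 0.134).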

How the data were processed

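Per the labels, polyadenylated RNA from digested marrow and bone cells was made into libraries with an Illumina mRNA kit. Per the submitters' processing notes, bcl2fastq 2.20.0, STAR 2.7.9a, build Rnor_6.0 and featureCounts (Subread 2.0.1) were used; annotation, filters and strand setting: not given in the sources used here, so reads of overlapping genes cannot be told apart. The authors deposited raw read counts per gene symbol, and a normalised signal that equals the deposited count divided by 1 size factor per library. The normalised signal was not used in the tests, and the size factor alternative estimated its factors from the raw counts.

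Counts were tested with edgeR 4.0.16 (R 4.3.3): filterByExpr (minimum count 10, total 15) kept 11814 genes with 99.98% of counts, TMM scaling, a term per group over 18 libraries, a robust quasi-likelihood fit (12 residual degrees of freedom), and Benjamini-Hochberg adjustment over all genes within each of 14 comparisons. The biological coefficient of variation was 26%. CPM and its log2 (prior count 2) use TMM library sizes. The alternatives were DESeq2 1.42.0, voom with quality weights (limma 3.58.1), other scaling, no filter, a fit of the compared groups alone, a block for the replicate number, and leaving out each library. Within groups chi-square per degree of freedom was at least 30.5, so no pair was treated as 1 library.

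Relations used 100000 permutations, two-sided, adjusted over 70 pairs of a member and a list (NumPy 2.4.6, SciPy 1.17.1). Sequences came from RefSeq tables, in which 14821 of 17337 symbols were found; only symbols and sequences were used from GRCr8. Counts were simulated for the week 2 contrast of ACPC-NP with PCL on 11745 genes. In them edgeR found 48 of 100 planted 2-fold changes, 80 of 100 planted 4-fold changes and 4 unchanged genes. DESeq2 called 29 unchanged genes and voom 3. The simulated counts held no library that stood apart as replicate 3 of ACPC-NP did. These rates therefore need not hold for the real contrast, in which edgeR called 0 of 11814 genes.

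The members and lists were chosen with earlier results of these data known, the rise of Car4 among them. All 7 members are named in every library; differences are given where an unadjusted p was under 0.05 or CPM ranges did not overlap. From each pathway list at most 4 genes with the smallest p at week 2 are named, and for each member the 5 genes of highest rho. Intervals and standard errors cover the spread between libraries and not the separation of animals.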

Additional observations from a re-analysis of the deposited data

Results flagged for a closer look

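Car13 and Car2 were each marked because the same contrast pointed opposite ways in 2 settings without overlap between the groups. Car13 in ACPC-NP minus CaP was 0.98 on the log2 scale at week 2 (0.61 without replicate 3 of ACPC-NP, edgeR adjusted p = 0.883), with all 3 ACPC-NP libraries above, and −0.50 at week 6, with all 3 below. The difference between these, −1.48 ± 0.44, did not pass (edgeR adjusted p = 0.257). Without that replicate it was −1.11 ± 0.40 (edgeR adjusted p = 0.523). Car2 in week 6 minus week 2 was 0.67 around ACPC-NP (0.42 without replicate 3 of week 2, edgeR adjusted p = 0.558), with every library of week 6 above, and −0.55 around CaP, with every library below. The difference between these, 1.22 ± 0.36, did not pass (edgeR adjusted p = 0.257). With 3 libraries a group, no library was tested as an outlier.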

How the results depend on the processing

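No member changed the sign of a difference past the threshold under any alternative that was run. The number of members called moved with the tool. DESeq2 called 1 member for ACPC-NP against PCL at week 2 (5.37% of all genes called) and 2 against CaP at week 2 (5.04%). It called 2 against PCL at week 6 (7.63%) and 2 between the weeks around ACPC-NP (6.64%). Against the CaP and PCL mean it called 2 at week 2 (8.63%) and 2 at week 6 (5.6%). It called 1 for the change of ACPC-NP against PCL and 1 for the change against CaP. Voom with quality weights called 1 against CaP at week 2 (Car13, 3.09% of all genes called) and 2 against PCL at week 6 (34.2%). It called 2 between the weeks around ACPC-NP (11.4%) and 2 against the mean at week 6 (29.3%). It called 1 between the weeks around PCL (Car1), 2 for the change against PCL and 2 for the change against CaP. Against the mean at week 2 voom called Car13 in place of Car4 (7.4%). With only the groups compared, 0 members were called against the mean at week 2 (0.0346% of all genes) and 2 against the mean at week 6 (2.74%). With 1 library left out, the counts ran from 0 to 1 against PCL at week 2, 0 to 2 against CaP at week 2, 0 to 3 between the weeks around ACPC-NP, 1 to 2 against the mean at week 2, 0 to 1 against the mean at week 6 and 0 to 1 for the change against PCL; the cause was not tested. The share of all genes called is not given for DESeq2 and voom on the changes or for voom around PCL. It is also not given for most fits with 1 library left out. Counts without that share do not set the members apart from other genes. Car4 against the mean at week 2 ran from 7.34 to 10.41 over the libraries left out and kept its call in each. DESeq2 made 29 false calls on the simulated data and edgeR 4, but those data held no library that stood apart.

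With the replicate number as a block, 1 member (Car4) was called against the mean at week 2 and 0 in the other comparisons, and no count of members moved; all genes called against the mean at week 2 fell to 239, against 590 without the block. Whether the replicate numbers pair the samples could not be settled. The correlation of deviations between same-numbered libraries ran from −0.327 to 0.42, and 18 of 45 pairs exceeded 0.1. Many of these pairs join libraries of different weeks, which carry different numbers in the deposited columns. Between scaffolds at week 2 it was 0.143 to 0.379 for replicate 1. It was −0.0513 to 0.0139 for replicate 2 and −0.0481 to 0.180 for replicate 3. The set without replicate 3 of ACPC-NP at week 2 for the gene lists was chosen after seeing the data. Depth limits Car4, which had 2 to 14 counts in the CaP and PCL libraries of week 2, and Car9 and Car12, whose lowest libraries had 10 and 3 counts.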
